A study of Mus musculus with 6 samples.

Results

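The dendritic cell transcripts described here are 9 genes, chosen by name, of the 22377 genes in a table of RNA sequencing counts from tumor-associated macrophages (TAMs). They are Flt3, Zbtb46, Batf3, Xcr1, Cd209a, Ccr7, Fscn1, Ccl17 and Ccl22, and all 9 were in the table and passed the filter on low counts, among 13884 genes tested. Cells of the Lewis lung carcinoma (LLC) line were implanted subcutaneously in mice of both sexes aged several weeks, and the macrophages were obtained from the tumors by sorting for CD45, CD11b and F4/80. The sample labels instead name tumor tissue as the material. There were 3 libraries labelled wt, called Npm1+/+ here after the groups of the study, and 3 labelled knockdown, called labelled Npm1+/- here, since a knockdown and a heterozygous genotype differ. No treatment beside the genotype is named for these libraries. The heterozygous genotype is not restricted to macrophages, so other cells of the host would carry it while the implanted LLC cells would not. The labels give each library as its own biosample, with no animal, litter or batch named. For a display of these data the study names fewer individual mice than there are libraries in a group. Some libraries may therefore share a mouse, and p-values measure the spread between these samples, which may be technical.

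Conventional dendritic cells capture antigen in tissues and carry it to lymph nodes, where they present it to T cells. Their growth depends on the receptor Flt3, and they are commonly divided into type 1 cells (cDC1), which need Batf3, carry Xcr1 and present antigen to CD8+ T cells, and type 2 cells (cDC2), of which many in the mouse carry Cd209a. On maturation both types lose their capacity for uptake, gain Ccr7, which guides them towards lymphatic vessels, and express the actin-bundling protein Fscn1 and the chemokines Ccl17 and Ccl22, which attract T cells through the receptor Ccr4. Macrophages and monocytes can also express Ccl17, Ccl22, Cd209a and Ccr7, so that no single one of these genes defines a dendritic cell, while Zbtb46 and Flt3 are the members most often used to set conventional dendritic cells apart from macrophages.

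Total counts were between 36550775 and 38147320 per library. At this depth the limit that a count of 0 allows, 3 counts, lay between 0.0716 and 0.0846 CPM (counts scaled to library size), which covers counting error only. Npm1, the targeted gene, was not lower in the libraries labelled Npm1+/-, at 142, 380.2 and 381.2 CPM in Npm1+/+ replicates 1, 2 and 3 against 441, 498.5 and 342.9, with a log2 fold change of 0.51 (standard error 0.36, adjusted p = 0.436, edgeR's quasi-likelihood test) that was 0.16 without Npm1+/+ replicate 1. Directions below are those between the libraries as labelled. Npm1+/+ replicate 1 stood apart from the other 5 libraries, at -108 on a first principal component that held 68% of the variance, against -4.54 to 52 for the others, so values without it are given where it decides a result. The markers of the sorting gate were present in every library, with Adgre1, which encodes F4/80, between 127.2 and 301.7 CPM and Itgam, which encodes CD11b, between 1492.5 and 2975.1.

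Promoter sequences of some members are shown first. Fscn1 is shown because its levels separated the groups. Ccl22 and Cd209a are shown because their correlation over the libraries was the highest among pairs of members, though no pair passed the adjustment. Ccl17 is shown because it encodes the second ligand of Ccr4. The sequences are the bases before the start of each gene in RefSeq on GRCm38.p6, 5′ to 3′ on the strand of the gene. They are up to 250 in number, without the 12 bases of Fscn1 and the 94 bases of Ccl22 that GENCODE places within the gene. They lie at chr5:142960105-142960342 on the plus strand for Fscn1, chr8:94745434-94745589 on the plus strand for Ccl22, chr8:3748985-3749234 on the minus strand for Cd209a and chr8:94810203-94810452 on the plus strand for Ccl17. Capitals mark the motifs found.
Fscn1: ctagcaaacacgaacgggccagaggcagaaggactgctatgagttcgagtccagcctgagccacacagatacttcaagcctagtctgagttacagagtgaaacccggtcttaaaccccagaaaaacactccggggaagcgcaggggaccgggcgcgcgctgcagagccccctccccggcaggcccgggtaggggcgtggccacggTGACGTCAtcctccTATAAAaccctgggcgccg
Ccl22: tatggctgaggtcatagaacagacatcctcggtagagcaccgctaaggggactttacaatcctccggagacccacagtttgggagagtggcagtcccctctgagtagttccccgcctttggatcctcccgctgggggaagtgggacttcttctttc
Cd209a: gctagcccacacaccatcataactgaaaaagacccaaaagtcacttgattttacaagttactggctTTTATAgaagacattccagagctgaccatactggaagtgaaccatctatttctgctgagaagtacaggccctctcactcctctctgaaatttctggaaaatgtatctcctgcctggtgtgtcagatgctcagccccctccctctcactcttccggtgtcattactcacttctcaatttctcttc
Ccl17: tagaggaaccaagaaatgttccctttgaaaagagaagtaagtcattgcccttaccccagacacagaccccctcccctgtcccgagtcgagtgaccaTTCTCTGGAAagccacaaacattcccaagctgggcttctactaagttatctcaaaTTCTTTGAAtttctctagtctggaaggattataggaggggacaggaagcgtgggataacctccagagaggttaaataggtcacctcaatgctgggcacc
A promoter sequence from RefSeq was used for 8 of the 9 members, and that of Ccr7 was not analysed here. In the 250 bases before the RefSeq start, 5 motifs were searched on both strands. For Batf3 and Zbtb46 GENCODE places all of these bases within the gene. The cyclic AMP response element TGACGTCA occurred in Fscn1, from 45 to 38 bases before the start, and in no other member, while 1.55% of 32851 promoters of the same length held it. The motif TATAAA occurred in Fscn1, from 31 to 26 bases before the start, and in 12.4% of promoters. Cd209a and Xcr1 held it on the opposite strand, as TTTATA, farther from the start. Those matches lay from 184 to 179 and from 160 to 155 bases before it. The STAT motif TTCNNNGAA occurred in Ccl17, from 99 to 91 bases before the start, and in Batf3, there within the gene as GENCODE gives it, and in 7.02% of promoters. Its form with a wider spacer, TTCNNNNGAA, occurred in Ccl17 alone among the members and in 5.85% of promoters. The kappaB motif was found in none of the 8, against 3.9% of promoters. A match describes letters in this window and shows no binding.

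The members differed from each other in level by far more than the groups did. Levels between genes were compared in FPKM, the deposited values per gene length and sequencing depth, as means ± SD over the 6 libraries. Ccl22 was highest, at 114 ± 24.4, followed by Ccr7 at 105 ± 18.3 and Fscn1 at 56.8 ± 14.1. Ccl22 and Ccr7 did not differ beyond their spread, with Ccl22 higher in 4 of 6 libraries. Both lay above 95% of the genes tested, at percentiles 95.9 and 95.6. The next were Cd209a at 27.7 ± 10.4 and Ccl17 at 15.2 ± 4.57.
The genes that mark the dendritic cell lineage itself were lower. Batf3, a transcription factor of cDC1 that is also made by other leukocytes, was at 5.12 ± 1.81 FPKM, and Flt3, the receptor tyrosine kinase, was at 3.87 ± 1.17, with Batf3 above Flt3 in 5 of 6 libraries. Zbtb46, a transcription factor of conventional dendritic cells, was at 1.03 ± 0.195. Xcr1, the chemokine receptor of cDC1, was lowest at 0.125 ± 0.0701, at percentile 5.75 of the genes tested. From Ccr7 to Ccl17 each member exceeded the next in order in 6 of 6 libraries, although the ranges over the libraries of each such pair overlapped, as did those of Ccl17 and Batf3 and of Batf3 and Flt3. The ranges of Flt3, Zbtb46 and Xcr1 were separate from each other.

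**Figure D1:**
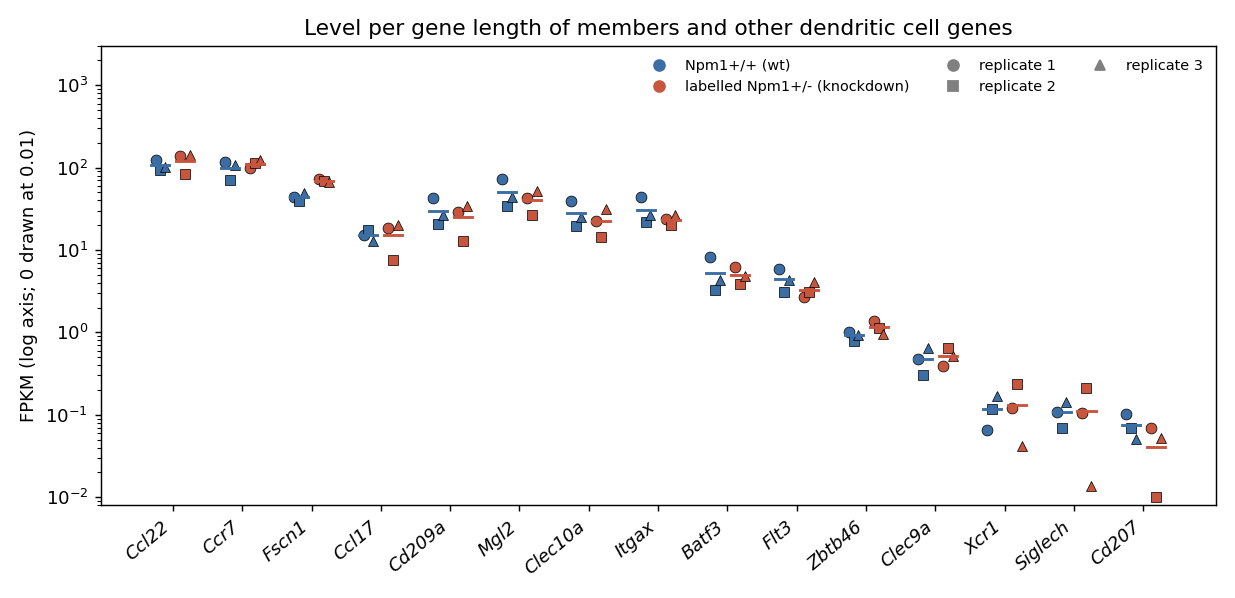
Level of the 9 members and of 6 other dendritic cell genes in each library, in FPKM on a log axis, with symbols for the replicates, colors for the groups and lines for group means. Ccl22, Ccr7 and Fscn1 lie between 39.1 and 142 FPKM, whereas Xcr1 lies between 0.0417 and 0.233.

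Other defining genes of dendritic cell subsets were also low. Clec9a, a second gene of cDC1 and a receptor for dead cells, had between 38 and 81 counts per library and a mean of 0.495 FPKM, with its lowest library, at 0.303 FPKM, above the highest of Xcr1, at 0.233. Siglech, a lectin of plasmacytoid dendritic cells, had between 2 and 30 counts and 0.109 FPKM, and Cd207, the langerin of Langerhans cells, had between 0 and 6 counts. The cDC2 genes Mgl2 and Clec10a, lectins that macrophages express too, were higher, with means of 45.2 and 25.4 FPKM. Itgax, which encodes CD11c of dendritic cells and many macrophages, had a mean of 27.2 FPKM. In bulk samples, fewer cells of a type cannot be told apart from less RNA per cell, and whether the members' RNA came from dendritic cells or from the macrophages was not measured.

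Between the groups, edgeR's quasi-likelihood test called 0 of the 9 members at an adjusted p under 0.05, and likewise 0% of the 13884 genes tested. DESeq2 called 0 of the 9, against 0.263% of all genes. At an unadjusted p under 0.05 there was 1 member, Fscn1, which is 1 of 9 against 15.2% of all genes tested. Of the 9 members, 4 had a higher and 5 a lower estimate in the libraries labelled Npm1+/-, with a median log2 fold change of -0.03, close to the 0.02 of all genes tested. The groups did not overlap for 1 member, Fscn1, with each labelled Npm1+/- library above each Npm1+/+ library. This held for 13.3% of all genes tested, with 12.6% in the opposite direction, so 1 of 9 is near the background. The smallest two-sided p that an exact permutation test allows with 3 against 3 libraries is 0.1.

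**Figure D2:**
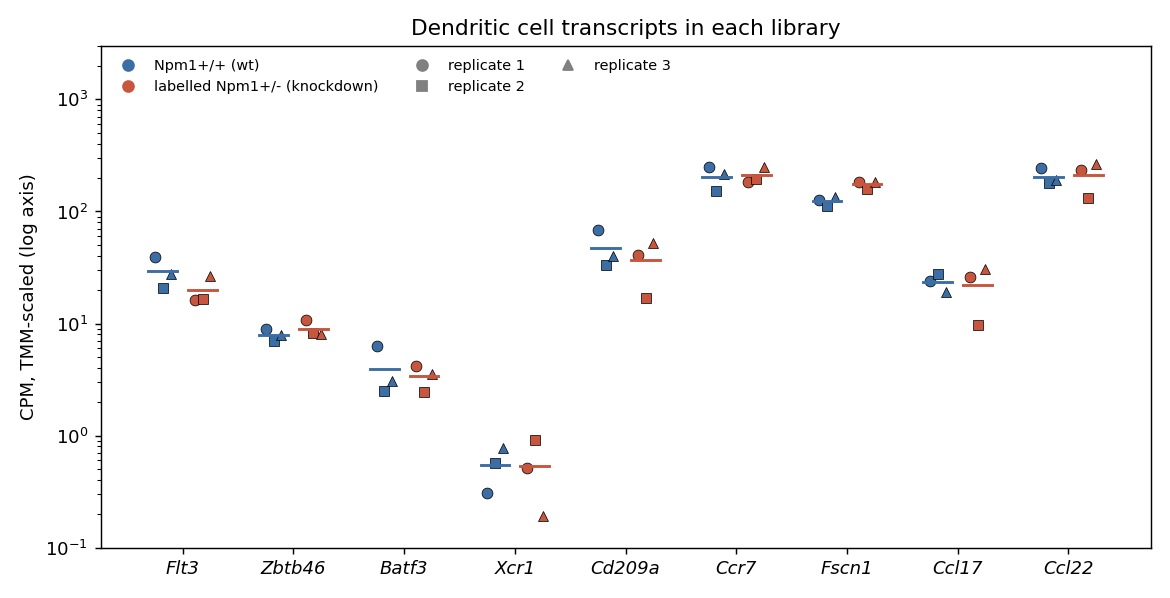
CPM of each member in each library after TMM scaling, on a log axis, with symbols for the replicates, colors for the groups and lines for group means. The groups overlap for all members except Fscn1, at 111.8 to 134.5 CPM in the Npm1+/+ libraries and 159.7 to 184.6 in the libraries labelled Npm1+/-.

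Fscn1 (NCBI Gene 14086) encodes fascin, which bundles actin into the long processes of mature dendritic cells and is also made by many tumor and stromal cells. The gene spans positions 142960343 to 142973185 of chromosome 5 (GRCm38, plus strand), and coordinates of the other members are given on the same build. Fscn1 stood at 127.5, 111.8 and 134.5 CPM in Npm1+/+ replicates 1, 2 and 3, and at 184.6, 159.7 and 182 in the labelled Npm1+/- replicates. All 3 of the latter were above all 3 of the former. Mean levels were 124.6 ± 11.6 and 175.4 ± 13.7 CPM (SD, n = 3 each), a 1.41-fold difference with a log2 fold change of 0.49 (standard error 0.12, 95% interval from 0.20 to 0.78). The adjusted p was 0.328 by edgeR's quasi-likelihood test and 0.179 by DESeq2, and the exact two-sided permutation p was 0.1. Its p-value was at rank 104 of all genes. Without Npm1+/+ replicate 1 the log2 fold change was 0.51.
Markers of other cells were measured beside Fscn1. The summed level of 8 fibroblast genes was between 24 and 477.5 CPM in the Npm1+/+ libraries and between 345.1 and 688.1 in the others. That of 9 T and NK cell genes was between 42.2 and 106.4 against 88.1 and 249.9, and that of 6 epithelial or carcinoma genes between 36.1 and 137.7 against 129.1 and 191.7. Each of these ranges overlapped between the groups. Most of the fibroblast sum was Col3a1, at 604.5 of 688.1 CPM in labelled Npm1+/- replicate 1. Except in Npm1+/+ replicate 1, most of the epithelial or carcinoma sum was Krt8, at 170.9 of 191.7 CPM in that library. Of the 4 epithelial or carcinoma genes tested, Krt8 and Krt18 had higher estimates, at 1.25 and 0.76. Krt7 and Cdh1 had lower ones, at -1.03 and -0.41. None of the 8 fibroblast genes was at 0 in any library. The part of these cells in the Fscn1 difference was not tested.

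Flt3 (NCBI Gene 14255), on chromosome 5 from 147330741 to 147400489 on the minus strand, was at 39.1, 20.9 and 27.5 CPM in Npm1+/+ replicates 1, 2 and 3. In the labelled Npm1+/- replicates it was at 16.1, 16.6 and 26.5. The groups overlapped through the third labelled Npm1+/- library, which exceeded Npm1+/+ replicate 2. The log2 fold change was -0.57 (standard error 0.29, 95% interval from -1.23 to 0.10, adjusted p = 0.346, edgeR's quasi-likelihood test), so that the interval allows levels from 0.426-fold to 1.07-fold. Npm1+/+ replicate 1 was the highest library, and without it the log2 fold change was -0.30. An antisense gene, Gm26597, overlaps Flt3, and whether reads were counted by strand is not given. Flt3l, the ligand of Flt3, was between 6.71 and 11.4 CPM in all libraries, with a log2 fold change of -0.14 (adjusted p = 0.744) that was 0.01 without Npm1+/+ replicate 1.

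Zbtb46 (NCBI Gene 72147), on chromosome 2 from 181387762 to 181459426 on the minus strand, had 9.0, 7.02 and 7.86 CPM in Npm1+/+ and 10.7, 8.19 and 8.04 CPM in labelled Npm1+/- libraries. It was the least variable member, with a 1.52-fold range over the 6 libraries. The groups overlapped, with a log2 fold change of 0.17 (standard error 0.21, 95% interval from -0.32 to 0.66, adjusted p = 0.640, edgeR's quasi-likelihood test). A small nuclear RNA gene, Gm22708, lies within Zbtb46 on the same strand.

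Batf3 (NCBI Gene 381319), on chromosome 1 from 191097847 to 191108945 on the plus strand, had 6.27, 2.48 and 3.1 CPM in Npm1+/+ and 4.2, 2.43 and 3.56 CPM in labelled Npm1+/- libraries. Npm1+/+ replicate 1 was highest, and the other 5 libraries lay within 2.43 to 4.2. The log2 fold change of -0.22 (standard error 0.41, adjusted p = 0.768, edgeR's quasi-likelihood test) became 0.28 without that library.
Xcr1 (NCBI Gene 23832), on chromosome 9 from 123852315 to 123862029 on the minus strand, had 11, 20 and 29 counts in the Npm1+/+ replicates against 20, 38 and 7. Both extremes were in libraries labelled Npm1+/-. Its estimate of -0.03 on the log2 scale had a 95% interval from -1.52 to 1.46, which allows levels from 0.348-fold to 2.76-fold (adjusted p = 0.981, edgeR's quasi-likelihood test). Xcl1, its ligand, which NK cells and CD8+ T cells make, had 1.52, 1.01 and 3.69 CPM in Npm1+/+ and 3.97, 11.7 and 3.72 CPM in labelled Npm1+/- libraries, with a log2 fold change of 1.64 (standard error 0.63, adjusted p = 0.328, edgeR's quasi-likelihood test) that was 0.88 without labelled Npm1+/- replicate 2. All 9 T and NK cell genes tested also had higher estimates, with a median log2 fold change of 1.07, and their part in the Xcl1 difference was not tested.

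Cd209a (NCBI Gene 170786), a C-type lectin that binds mannose-rich sugars, lies on chromosome 8 from 3743397 to 3748984 on the minus strand. Its 3 Npm1+/+ libraries had 68.3, 33.0 and 40.4 CPM and the others 40.7, 16.9 and 52.4, a 4.05-fold range over the 6 libraries. Npm1+/+ replicate 1 was highest and labelled Npm1+/- replicate 2 lowest. Over all 6 libraries the log2 fold change of -0.37 had a standard error of 0.43 and an adjusted p of 0.622 by edgeR's quasi-likelihood test, and it was -0.004 without the former library and -0.03 without the latter. Reads of Cd209a are uncertain, as the mouse has several closely related Cd209 genes that could share them.

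Ccr7 (NCBI Gene 12775), the receptor for Ccl19 and Ccl21, lies on chromosome 11 from 99144196 to 99155077 on the minus strand. Npm1+/+ replicates 1, 2 and 3 had 247.7, 151.5 and 216.1 CPM of Ccr7, and the labelled Npm1+/- replicates 184.9, 193.5 and 250.1. The groups overlapped throughout, with the lowest library in Npm1+/+. The means were 205.1 ± 49.1 and 209.5 ± 35.4 CPM (SD, n = 3 each), with a log2 fold change of 0.03 (standard error 0.21, 95% interval from -0.45 to 0.51, adjusted p = 0.939, edgeR's quasi-likelihood test). Levels from 0.730-fold to 1.43-fold lie within that interval. Its ligand Ccl19 had 1 count in a single library and 0 in the other 5. Ccl21a was not analysed here.

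Ccl22 (NCBI Gene 20299) and Ccl17 (NCBI Gene 20295) lie near each other on chromosome 8, from 94745590 to 94751699 and from 94810453 to 94812036, both on the plus strand, 58.8 kb apart with Cx3cl1 and a pseudogene between them. Ccl22 had 243.7, 179.9 and 189 CPM in Npm1+/+ and 236.7, 132.2 and 266.2 CPM in labelled Npm1+/- libraries. For Ccl17 the values were 23.8, 27.4 and 19.0 CPM against 25.8, 9.71 and 30.5 CPM. For both chemokines the libraries labelled Npm1+/- held the lowest level, in replicate 2, and the highest, in replicate 3, with the Npm1+/+ libraries between them. The log2 fold change was 0.05 for Ccl22 (standard error 0.26, 95% interval from -0.56 to 0.66, adjusted p = 0.917, edgeR's quasi-likelihood test). For Ccl17 it was -0.09 (standard error 0.39, 95% interval from -0.99 to 0.81, adjusted p = 0.905).
Per length, the level of Ccl22 was 8.3, 5.32 and 8.07 times that of Ccl17 in the Npm1+/+ libraries and 7.43, 11 and 7.07 times in the others. The receptor of both, Ccr4, which regulatory and helper T cells carry, had 2, 2 and 29 counts in Npm1+/+ and 33, 91 and 27 counts in labelled Npm1+/- libraries, with a log2 fold change of 2.06 (standard error 0.99, adjusted p = 0.336, edgeR's quasi-likelihood test). For Ccr4 the groups overlapped.

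**Figure D3:**
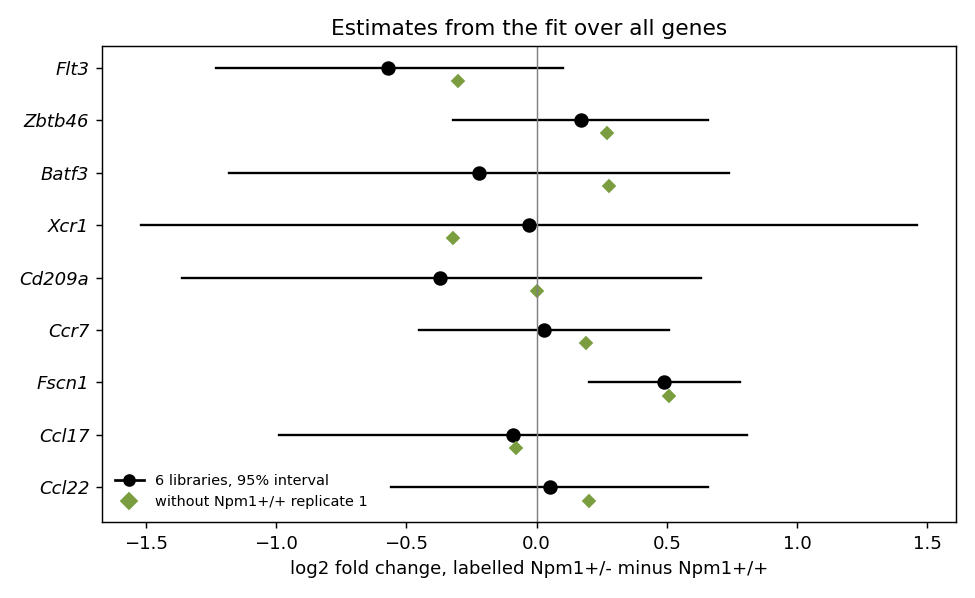
Log2 fold change of each member, labelled Npm1+/- minus Npm1+/+, from edgeR over 6 libraries (black points, with lines for the 95% interval) and without Npm1+/+ replicate 1 (green diamonds). The interval of Fscn1, from 0.20 to 0.78, is the only one that does not reach 0, and Batf3 lies on the other side of 0 without that library.

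The members did not vary as one group over the libraries. Of the 36 pairs of members, 24 had a positive r in log2 CPM and the others a negative one. The highest r was that of Cd209a with Ccl22, with Pearson's r = 0.92 and Spearman's rho = 0.943 over 6 libraries (exact permutation p = 0.025 and 0.0167, adjusted over the 36 pairs 0.225 and 0.2), and r was 0.876 without the 2 libraries farthest from the median of Cd209a. For Batf3 with Cd209a, r was 0.819 and rho 0.943 (exact permutation p = 0.0139 and 0.0167, adjusted 0.225 and 0.2), and r was 0.63 without the 2 farthest libraries. For Ccl17 with Ccl22, r was 0.856 and rho 0.6 (exact permutation p = 0.075 and 0.242, adjusted 0.337 and 0.668). Without the 2 libraries farthest from the median of Ccl17, r was 0.106, so that this relation rests on those libraries. The pair with the smallest p was Xcr1 with Ccl22, at r = -0.866 and rho = -0.943 (exact permutation p = 0.00833 and 0.0167, adjusted 0.225 and 0.2), with r = -0.762 without the 2 libraries farthest from the median of Xcr1, which had between 7 and 38 counts. Xcr1 had a negative r with each of the 8 other members, from -0.866 with Ccl22 to -0.139 with Zbtb46. No pair passed the adjustment. These values come from the same libraries, whose composition the members share.
Among all genes tested, those with the highest r over the 6 libraries were Pdk3, Htr7 and Ndufs4 for Ccl17 (r from 0.981 to 0.993), Emc2, Uggt1 and Txnrd2 for Ccl22 (0.968 to 0.983), Phospho2, Map3k1 and Tmem87b for Ccr7 (r up to 0.981), and Gpd1l, Tpcn2 and Mamdc2 for Flt3 (0.995 to 0.996). None of these 12 is a member or a dendritic cell gene of the lists used here. By this measure Cd209a ranked 36 and Ccl17 ranked 118 among the genes closest to Ccl22, and the member nearest to Ccr7 was Flt3, at rank 799.

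**Figure D4:**
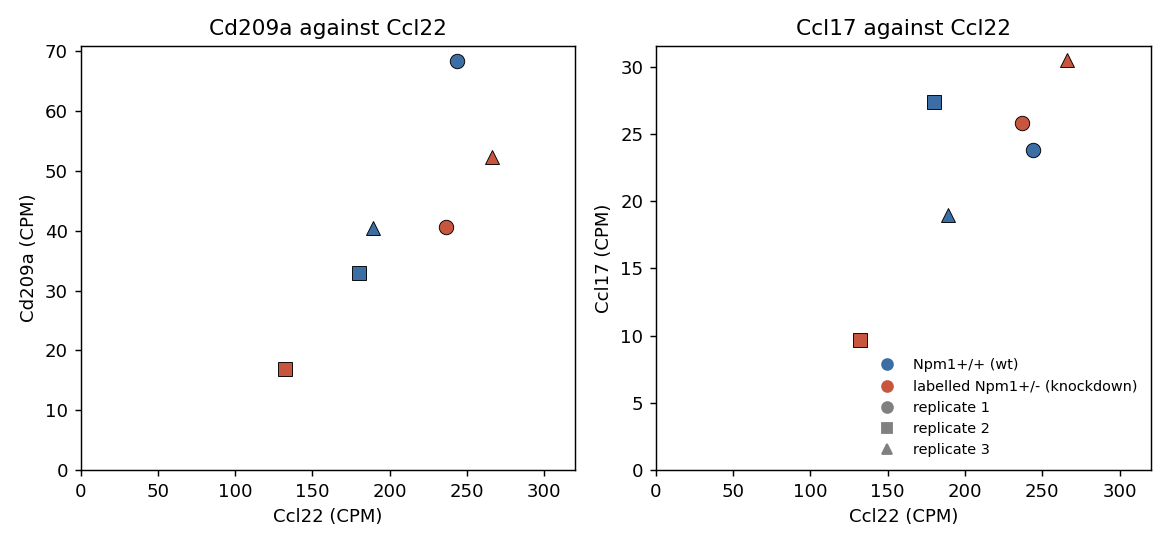
CPM of Cd209a (left) and Ccl17 (right) against CPM of Ccl22, 1 point per library. Labelled Npm1+/- replicate 2 is lowest for all 3 genes, at 132.2 CPM of Ccl22, and the other 5 libraries are ordered more closely for Cd209a than for Ccl17.

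The wider dendritic cell lists likewise held no gene past the threshold in edgeR or DESeq2. Of 20 genes of mature, migratory dendritic cells, 4 of them members, 9 had a higher and 11 a lower estimate, with a median log2 fold change of -0.02. Cd83, a surface protein of activated antigen-presenting cells, was at 549.8 ± 99 CPM against 414.9 ± 84.7 (SD, n = 3 each), and Marcksl1 at 585.9 ± 289.2 against 475.2 ± 37. Samsn1, Tmem123 and Birc3, the other genes of this list with high levels, had log2 fold changes of -0.04, -0.00 and -0.15. Marcksl1, at -0.30, was at -0.56 without Npm1+/+ replicate 1 and at 0.16 without replicate 2, and Samsn1 and Birc3 were at -0.21 and -0.25 without the former. Besides Fscn1, 1 gene of this list did not overlap between the groups, Il12b, named after its values were seen, which encodes the p40 subunit of IL-12 and IL-23 and was at 7.8 ± 1.61 CPM against 11.9 ± 2.18 (log2 fold change 0.61, adjusted p = 0.328). Among all genes tested, 13.3% lay higher in each library labelled Npm1+/- and 12.6% lower, so 2 of 20 does not exceed the background.
Of 12 cDC1 genes, 2 of them members, 3 had a higher and 9 a lower estimate, with a median of -0.14. Wdfy4, which cDC1 need to cross-present antigen, was lower in each library labelled Npm1+/-, at 117.2, 99.6 and 169 CPM against 290.1, 177.4 and 186 (log2 fold change -0.76, standard error 0.26, adjusted p = 0.328), as was Naaa, an amidase, at -0.70. Cadm1, named after its values were seen, was the gene of this list that lay higher in each, at 1.10. Of the 12 genes, 2 thus lay lower in each and 1 higher, against 12.6% and 13.3% of all genes tested. Irf8, a transcription factor of cDC1 and monocytes, had a log2 fold change of -0.39, Ifi205 of -0.07 and Cd24a of 0.05. Clec9a was at -0.03, with 1.07 to 2.17 CPM, far below Wdfy4 and Naaa, the latter at 91.9 to 277.8 CPM. Which cells the RNA of Wdfy4 and Naaa came from was not measured. Without Npm1+/+ replicate 1 the values were -0.50 for Wdfy4, -0.45 for Naaa, 0.64 for Cadm1, -0.20 for Irf8, -0.41 for Ifi205 and -0.01 for Cd24a, and the median of the list was -0.26.
Of 10 cDC2 genes, 1 of them a member, 4 had a higher and 6 a lower estimate, with a median of -0.09. Mgl2 and Clec10a, at -0.44 and -0.42, were highest in Npm1+/+ replicate 1, and without it stood at -0.06 and -0.08. Il1r2 was at -0.12 and Klf4 at -0.06, which became -0.02 and 0.09 without that library. Ltb was at 0.88, and at 0.27 without labelled Npm1+/- replicate 2. Irf4, named after its values were seen, a transcription factor of cDC2 and of lymphocytes, was higher in each library labelled Npm1+/-, at 40.6, 71.6 and 37.6 CPM against 34.6, 27.5 and 30.6 (log2 fold change 0.69, adjusted p = 0.328), with 0.33 without labelled Npm1+/- replicate 2. It was 1 of 10 genes to do so, against 13.3% of all genes tested.
Of 10 genes shared by conventional dendritic cells, 2 of them members, 8 had a lower estimate, with a median of -0.38, which was -0.17 without Npm1+/+ replicate 1. These included the MHC class II genes H2-Ab1, H2-Aa and H2-Eb1, at -0.46, -0.38 and -0.38, and Itgax at -0.54, each highest in Npm1+/+ replicate 1, and Id2 at -0.17. Without that library H2-Ab1, H2-Aa, H2-Eb1 and Itgax were at -0.24, -0.16, -0.16 and -0.17. Of the 8 tested genes of plasmacytoid dendritic cells, 3 were higher and 5 lower, with a median of -0.01, and Irf7, an interferon-induced transcription factor also expressed in macrophages, lay lower in each library labelled Npm1+/-, at -0.61 (adjusted p = 0.328). Bst2 was at -0.01, Runx2 at 0.12, Spib at -0.02 and Ly6d at 0.20, of which Spib became -0.73 and Ly6d -1.18 without labelled Npm1+/- replicate 2. Of 3 Langerhans cell genes only Mfge8 was tested, at 0.46, higher in each library labelled Npm1+/-. That direction in each library held for 13.3% of all genes tested, and that of Irf7 for 12.6%.

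The chains of the receptor for GM-CSF, a growth factor of dendritic cells and macrophages, were lower in each library labelled Npm1+/-. This held for 12.6% of all genes tested. Csf2rb, the shared beta chain, had 1099, 830.4 and 750.4 CPM in Npm1+/+ and 562.8, 477.7 and 631.1 CPM in labelled Npm1+/- libraries (log2 fold change -0.68, standard error 0.19, adjusted p = 0.328, edgeR's quasi-likelihood test). Csf2ra was at -0.42 (standard error 0.17), with 435.2 CPM in the highest labelled Npm1+/- library and 441 in the lowest Npm1+/+ library. Without Npm1+/+ replicate 1, Csf2rb was at -0.51 and Csf2ra at -0.29. Csf2, which encodes GM-CSF itself, was at 0.197 to 0.451 CPM against 0.684 to 1.07, with a log2 fold change of 1.58 (standard error 0.50, adjusted p = 0.328). These were 7 to 16 counts against 25 to 42, and the part of T and NK cells in the Csf2 difference was not tested. Of the tested ligands and receptors of the members themselves, Xcl1 and Ccr4 had higher estimates and Flt3l a lower one.

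Markers of the sorted cells and of other myeloid cells were read in the same fit. Of 12 macrophage genes, 12 had a lower estimate, with a median log2 fold change of -0.52, and 8 of the 12 were lower in each library labelled Npm1+/-, against 12.6% of all genes tested. Of 7 monocyte genes, 7 were lower, with a median of -0.69, and of 7 neutrophil genes, 7, with a median of -0.53. The summed macrophage list was between 7082.1 and 7191.5 CPM in the Npm1+/+ libraries and between 4158.5 and 6583.8 in the others. The sum of the 9 dendritic cell transcripts was between 534.6 and 765.7 CPM against 540.1 and 819.5, so that it overlapped throughout. Most of this sum was Ccr7, Ccl22 and Fscn1, at 247.7, 243.7 and 127.5 of 765.7 CPM in Npm1+/+ replicate 1. The cDC1 sum did not overlap, at 773.6 to 939.6 CPM against 581 to 693.9. Nor did the plasmacytoid sum, at 251.7 to 305 against 215 to 239.2. In Npm1+/+ replicate 1, Wdfy4 and Naaa held 290.1 and 277.8 of 939.6 CPM of the former, and Xcr1 and Clec9a 0.309 and 1.69. Irf7 held 177.9 of 305 CPM of the latter in that library, and Siglech 0.45. In FPKM the cDC1 sums still did not overlap. The plasmacytoid sums did overlap in FPKM, at 172.9, 154.3 and 148.2 against 160.8, 160.4 and 126.7. Neither sum measures the number of such cells. The CPM sums of the cDC2, mature migratory and shared conventional lists overlapped, and the Langerhans sum lay higher. The latter was nearly all Mfge8, at 26.9 of 27.1 CPM in Npm1+/+ replicate 1, while Cd207 had between 0 and 6 counts. Among abundant genes of the macrophage list, Itgam, Ptprc and Cd68 had log2 fold changes of -0.49, -0.09 and -0.54. The monocyte genes Vcan and Chil3 were at -0.37 and -0.83, and the neutrophil gene S100a9 was at -0.46. Without Npm1+/+ replicate 1, Vcan and Chil3 were at -0.59 and -0.52. Of 5 B cell genes, 3 were higher and 2 lower, with a median of 0.00, and of 4 endothelial genes tested, 1 and 3, with a median of -0.33. None of these genes passed the threshold.

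**Figure D5:**
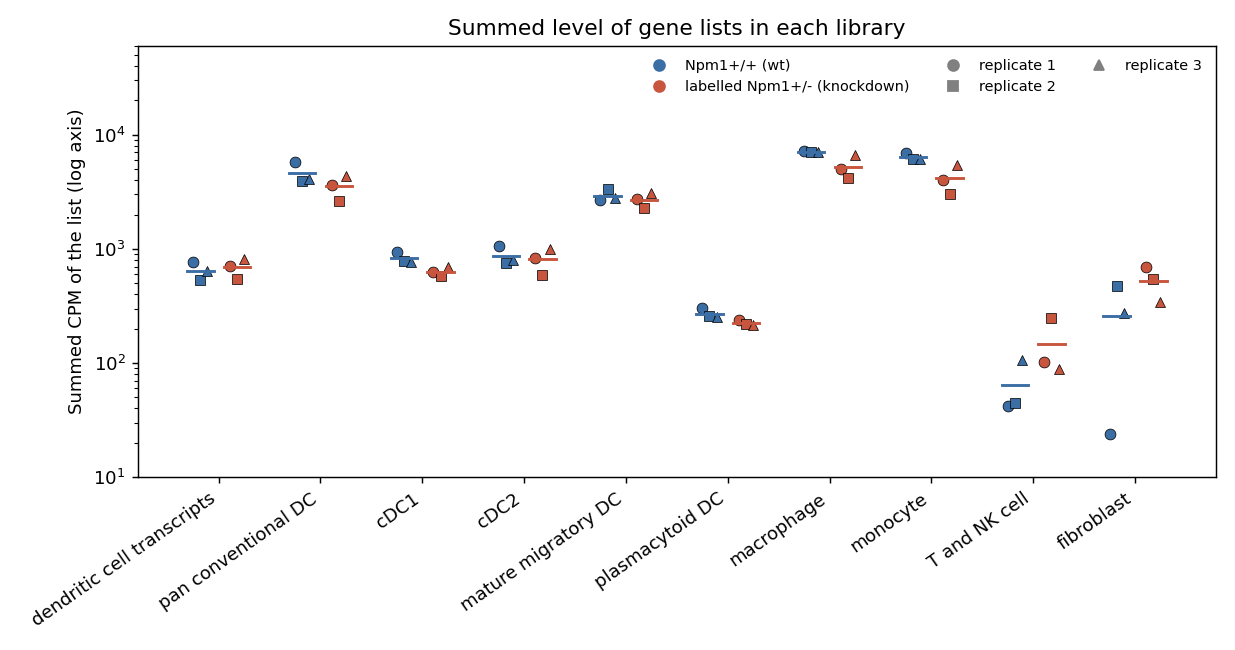
Summed CPM of gene lists in each library, on a log axis, with symbols for the replicates, colors for the groups and lines for group means. The 9 dendritic cell transcripts lie between 534.6 and 819.5 CPM in both groups, whereas the macrophage list is at 7082.1 to 7191.5 CPM in the Npm1+/+ libraries and at 4158.5 to 6583.8 in the libraries labelled Npm1+/-. The CPM sums of the cDC1 and plasmacytoid lists also lie lower in each library labelled Npm1+/-, and the other dendritic cell lists shown overlap. In Npm1+/+ replicate 1, Wdfy4 and Naaa hold 290.1 and 277.8 of 939.6 CPM of the cDC1 list. Irf7 holds 177.9 of 305 CPM of the plasmacytoid list there, whose sums overlap in FPKM.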

How the data were processed

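Per the methods of the study, RNA of sorted macrophages was copied to cDNA by a SMARTer low-input protocol before paired-end sequencing, while the labels describe TRIzol extraction and a small RNA protocol. Raw counts for each gene were deposited by the authors, and a second table deposited by the authors holds FPKM for the same libraries. The submitters' processing notes name mm10, and the aligner, counting tool and annotation are not given in the sources used here. Coordinates are those of GENCODE on GRCm38, matched by symbol.

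The members and gene lists were chosen with earlier results of these data known. Counts were filtered with filterByExpr, scaled by TMM and tested with glmQLFit and glmQLFTest in edgeR 4.0.16 (R 4.3.3), with Benjamini-Hochberg adjustment over 13884 genes and a threshold of 0.05. Standard errors were derived from the log2 fold change and the F statistic. log2 CPM used a prior count of 2. Alternatives used DESeq2 1.42.0 and limma 3.58.1 on log2 of FPKM plus 1 or 0.1. The edgeR step was tested on simulated data. The genes named are the 9 members, Npm1, up to 5 non-member genes with the highest mean FPKM in each dendritic cell list, their defining genes, the closest genes by r, and abundant markers of other cells, with exceptions marked. Libraries of a group differed by a chi-square per gene between 31.1 and 139, so none was deposited 2 times within its group. Libraries of different groups were not compared in this way.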

Additional observations from a re-analysis of the deposited data

How the results depend on the processing

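The number of genes past the threshold was 0 in edgeR and 36 with DESeq2, of which none was a member or a gene of the lists, and the cause was not tested. Flt3, Zbtb46, Cd209a and Fscn1 kept their direction under all 15 alternatives, with log2 fold changes from -0.84 to -0.30, from 0.03 to 0.34, from -0.72 to -0.004 and from 0.42 to 0.64, and no member passed the threshold in any, with adjusted p for Fscn1 from 0.139 to 0.701. Xcr1, estimated at -0.03, became 0.02 with upper quartile factors, 0.02 with limma on log2 FPKM plus 1 and 0.03 with plus 0.1, and could not be tested with at least 10 counts in every library. Batf3 became 0.01 with plus 0.1, a scale on which the median of all genes was 0.16. With libraries left out, the range was -0.65 to 0.36 for Xcr1, -0.47 to 0.28 for Batf3, -0.15 to 0.19 for Ccr7, -0.40 to 0.26 for Ccl17 and -0.15 to 0.29 for Ccl22, each on both sides of 0, and 0.16 to 0.70 for Npm1. Without both Npm1+/+ replicate 1 and labelled Npm1+/- replicate 3, Xcr1 was at 0.08, Batf3 at 0.24 and Ccl22 at -0.0041.

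Libraries that share a number were not treated as pairs, since their deviations from the group means correlated at -0.241, 0.0605 and -0.337. A fit with a replicate block called 0 genes, in which Fscn1 stood at 0.49 and Flt3 at -0.55. With 3 libraries a group, differences in Xcr1, Cd209a and Ccl17 smaller than their spread could not be detected.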
